A study of Mus musculus with 70 samples.

Results

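The nuclear-encoded subunits of the mitochondrial respiratory chain were followed in microglia, the resident macrophages of the brain, from mice that carry or lack a tamoxifen-inducible Cre recombinase at the Cx3cr1 locus. The members were the protein-coding genes whose symbols begin with Ndufa, Ndufb, Ndufc, Ndufs, Ndufv, Uqcr, Cox4 to Cox8 or Atp5, with Sdha to Sdhd and Cyc1. This symbol rule used no measured value and found 92 of the 25806 gene identifiers listed in the count tables. They comprised 37 complex I genes, 4 of complex II, 9 of complex III, 15 of complex IV including Ndufa4, and 17 of ATP synthase (complex V). The other members were 8 complex I assembly factors (Ndufaf genes), Cox7a2l and the Cox5b-ps copy, which were kept out of the sums over complexes.

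The respiratory chain oxidises NADH at complex I and succinate at complex II, passes the electrons through complex III and cytochrome c to oxygen at complex IV, and uses the resulting proton gradient to make ATP at complex V. Most subunits are encoded in the nucleus and imported into mitochondria, while a few core subunits of every complex except complex II are encoded by mitochondrial DNA. Microglia use oxidative phosphorylation together with glycolysis, and macrophages of several kinds are known to shift between these pathways when activated.

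The 70 libraries were made by CEL-Seq2, which reads the 3' end of each transcript and tags every molecule with a unique molecular identifier. Each library held 500 sorted CD11b+ CD45+ Ly6G- CD206- cells from perfused brains, and the libraries formed 17 groups in 5 count tables. A Littman and a Jung version of the Cx3cr1CreERT2 knock-in were used, each replacing 1 Cx3cr1 allele, so Cre is made in the cells that express Cx3cr1 and needs tamoxifen to enter the nucleus. No label says that the replicates of a group came from separate animals, so the p-values measure only the spread between libraries.

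In the postnatal table, Littman Cre+ pups (Cx3cr1CreERT2(Litt) heterozygous, tamoxifen, n = 5) were set against Cre- pups (Cx3cr1+/+, tamoxifen, n = 5), and Jung pups heterozygous for Cx3cr1CreERT2(Jung) and Rosa26YFP received tamoxifen (n = 4) or oil (n = 5). In the vehicle and UC2288 table all pups also received either UC2288 (100 mg/kg), which lowers the cell cycle inhibitor p21, or its vehicle. The Littman Cre+ pups of that table received UC2288 and tamoxifen (n = 5), vehicle and tamoxifen (n = 4) or vehicle and oil (n = 4), and the Cx3cr1+/+ Cre- pups received UC2288 and tamoxifen (n = 3) or vehicle and tamoxifen (n = 5). Pups were 8 or 14 days old and received 0.1 mg tamoxifen on days 1 and 3 or 0.2 mg on days 5 and 7, and neither choice is given per library. Adults (6 to 15 weeks) of the Littman line, Cx3cr1CreERT2(Litt) heterozygous, received tamoxifen (4 mg per injection, n = 3) or oil (n = 4).

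For the 2 remaining tables the titles and the treatment labels of the Jung libraries disagree. All mice of these tables were likewise labelled as 6 to 15 weeks old, with tamoxifen at 4 mg per injection. The BLZ-titled table holds Littman heterozygotes with tamoxifen (n = 4) or oil (n = 3), labelled as treated with BLZ945, an oral inhibitor of the microglial survival receptor CSF1R (100 mg/kg for 5 days). It also holds BLZ-titled Jung heterozygotes with Rosa26YFP, tamoxifen (n = 4) or oil (n = 4), whose treatment labels do not name BLZ945. The adult-titled Jung heterozygotes with tamoxifen (n = 4) or oil (n = 4) carry a BLZ945 treatment label. Groups are therefore called by their titles, and comparisons of tamoxifen with oil within a Jung set do not depend on which label is right.

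Libraries of postnatal pups held 329329 to 450461 counts, BLZ-titled ones 184513 to 236106, vehicle and UC2288 ones 116083 to 277680, adult-titled Jung ones 274120 to 304794 and adult Littman ones 288396 to 347941. The members took 0.373% to 1.28% of the counts of a library, and 77, 74, 80, 60 and 68 of them, in the same order of tables, had enough counts to be tested. Levels are given as CPM, the counts of a gene scaled to a common total of tested-gene counts with TMM factors. Reads come from the 3' end of a transcript, so levels were not scaled by gene length. The sources do not say whether reads of 1 molecule were collapsed, and comparisons of level between genes carry that limit. A gene was called when its Benjamini-Hochberg adjusted p, over all genes of the table, was below 0.05 in edgeR's quasi-likelihood test. Counts of members at an unadjusted p below 0.05 are given without the share of all genes at that p, so they cannot show an excess over other genes. Fits that left out 1 library are likewise given without their share of all genes called. Cx3cr1 was lower in Littman Cre+ than in Cre- pups, at 1510 ± 107 against 4071 ± 80.3 CPM in the postnatal table (SD, n = 5 each).

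Several libraries stood apart from their groups. UC2288-treated Cre+ replicate 3 had 5085.1 CPM of P2ry12, a receptor of homeostatic microglia, against 903.2 to 1271.8 CPM in the other 4 libraries of its group. Its Cx3cr1 was 2046.8 CPM, against 741.5 to 1031.0 CPM in those 4 libraries, while its Cdkn1a, which encodes p21, was 566.6 CPM against 571.0 to 862.2 CPM. Adult Littman oil replicate 3, adult-titled Jung tamoxifen replicate 1, BLZ-titled Jung tamoxifen replicate 1, BLZ-titled Littman tamoxifen replicate 4 and postnatal Jung tamoxifen replicate 1 stood apart in all gene counts, each differing more from every other library of its group than those did from each other. For adult Littman oil replicate 3 the chi-square per degree of freedom of all gene counts was 4.73 to 5.31 against the others, beside 1.54 to 1.96 among them. Vehicle Cre- tamoxifen replicate 4 did so narrowly (2.02 or more, beside 1.98 or less), and without it 18 members, in place of 19, were called lower in vehicle Cre+ tamoxifen than in Cre- pups, and 0 in the other comparisons within that table that use it. In a group of 3 libraries, 1 always differs more from the others than those do from each other, so such groups are not listed. UC2288-treated Cre- replicate 3, from such a group, had 4.01 and 3.43 against the others, beside 2.21 between them. The member counts, medians or summed levels of each comparison within a table that uses the other libraries named here are given with and without them. The exception is UC2288-treated Cre+ against Cre- pups, not given without Cre- replicate 3 alone.

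The promoters of respiratory chain genes are known for sites of the nuclear respiratory factor NRF1, ETS-family factors, YY1 and SP1. RefSeq promoter windows on GRCm38.p6, from 250 bases before to 50 after a gene's start, were matched by gene ID or symbol to 74 of the 92 members and searched on both strands. The core of the NRF1 motif, GCATGCG, stood in 13 of the 74 member promoters (17.6%), against 4.01% of all 27025 genes with a window. The ETS motif CCGGAAG stood in 19 member promoters (25.7%) against 9.93% of all genes, the YY1 core AAGATGG in 12 (16.2%) against 7.28%, and the SP1 motif GGGCGG in 34 (45.9%) against 38.2%. The windows of 3 genes that were called in several comparisons are shown in lower case, with these motifs in capitals as read on the gene's strand. CCGCCC is SP1 and CTTCCGG is ETS on the opposite strand. Cox7a2l, chr17:83514284-83514583, minus strand, has 2 SP1 motifs. Cox6a1, chr5:115348909-115349208, minus strand, has an NRF1 core that reads on both strands with overlap, 2 SP1 motifs and 1 ETS motif. Uqcrh, chr4:116075021-116075320, minus strand, has 1 ETS motif. Of other genes called in several comparisons and not shown, Atp5d has 0 of these motifs in each of its 2 windows. Ndufa13 has 3 SP1 motifs, and Ndufa6 has 1 NRF1 core and 1 SP1 motif.
Cox7a2l: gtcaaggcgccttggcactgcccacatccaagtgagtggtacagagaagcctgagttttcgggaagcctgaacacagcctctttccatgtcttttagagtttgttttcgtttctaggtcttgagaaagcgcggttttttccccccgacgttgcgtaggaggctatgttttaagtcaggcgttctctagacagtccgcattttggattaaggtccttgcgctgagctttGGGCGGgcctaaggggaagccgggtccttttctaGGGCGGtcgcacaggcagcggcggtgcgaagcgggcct
Cox6a1: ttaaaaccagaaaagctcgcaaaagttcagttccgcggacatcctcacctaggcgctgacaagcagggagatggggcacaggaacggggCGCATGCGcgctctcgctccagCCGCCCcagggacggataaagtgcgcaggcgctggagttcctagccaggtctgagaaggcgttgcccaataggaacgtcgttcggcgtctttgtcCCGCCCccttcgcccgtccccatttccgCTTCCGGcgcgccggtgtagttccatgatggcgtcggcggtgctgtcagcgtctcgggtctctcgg
Uqcrh: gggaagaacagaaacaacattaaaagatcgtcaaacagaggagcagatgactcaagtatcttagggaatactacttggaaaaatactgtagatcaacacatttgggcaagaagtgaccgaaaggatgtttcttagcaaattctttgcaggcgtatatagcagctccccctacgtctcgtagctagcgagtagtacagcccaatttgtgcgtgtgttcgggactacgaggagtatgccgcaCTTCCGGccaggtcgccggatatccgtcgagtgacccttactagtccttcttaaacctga
These matches describe letters only, and no binding was measured. Cox4i1, Cox6c and Uqcrb had no window.

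Across the 70 libraries, the complexes kept similar shares of the summed subunit CPM. Complex I held 30.4% to 38.2% (median 34.1%), complex II 2.70% to 6.86% (median 4.62%), complex III 7.55% to 12.6% (median 9.47%), complex IV 17.5% to 27.5% (median 22.3%) and complex V 24.3% to 34.0% (median 29.6%). Among genes, Cox4i1 (the ubiquitous subunit 4 isoform of cytochrome c oxidase) or Atp5g3 (a gene for subunit c of the ATP synthase rotor) was the highest subunit in every table, beside Cox7a2l at 545.8 CPM in the BLZ-titled and 326.2 CPM in the postnatal table. Table means were 504.0 CPM of Cox4i1 in the BLZ-titled and 351.1 CPM in the postnatal table. Atp5g3 was highest in the other 3 tables, at 473.2 CPM in the vehicle and UC2288, 250.6 CPM in the adult Littman and 211.9 CPM in the adult-titled Jung table. Ndufc2, an accessory subunit, was the highest complex I gene and Sdha, the flavoprotein of succinate dehydrogenase, the highest complex II gene in all 5 tables.

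The ubiquitous isoforms dominated over those named for heart, muscle, lung or testis. In the vehicle and UC2288 table Cox4i1 averaged 441.9 CPM and Cox4i2, a lung-enriched isoform, 1.11 CPM. In that table Cox6a1 averaged 395.5 CPM and its heart and muscle counterpart Cox6a2 3.37 CPM, while Cox7a2 averaged 94.8 CPM and Cox7a1 1.67 CPM. Cox6b1 averaged 204.8 CPM there and the testis isoform Cox6b2 2.43 CPM. Cox6a2 was highest in the BLZ-titled table, at 22.0 CPM beside 359.6 CPM of Cox6a1.

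**Figure D1:**
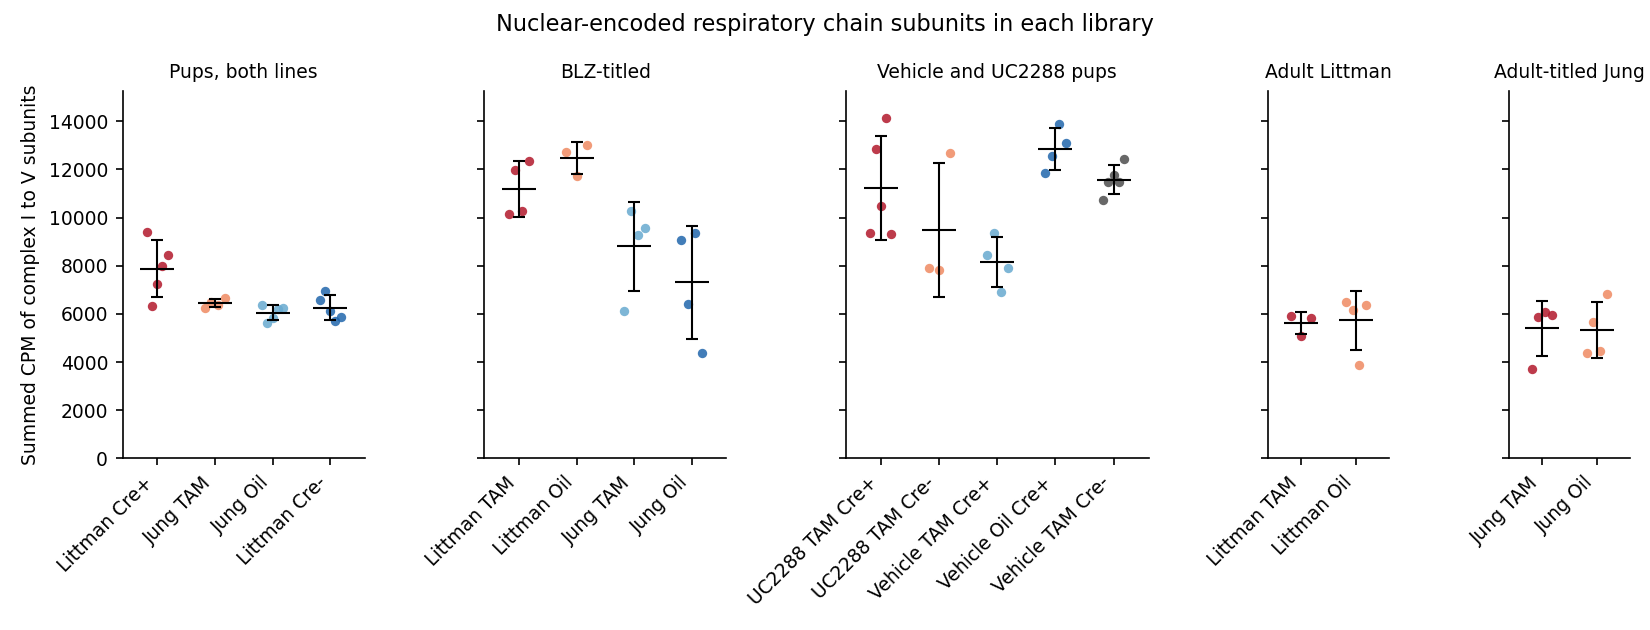
Summed CPM of the complex I to V subunits (y axis, linear from 0) in each library (points), by group (x axis) within each count table, with bars for the group mean and SD. Vehicle Cre+ tamoxifen libraries (6910 to 9379 CPM) sit below the Cre+ oil (11835 to 13884 CPM) and Cre- tamoxifen libraries (10729 to 12423 CPM), and BLZ-titled Littman oil libraries (11749 to 13019 CPM) sit above Jung oil libraries (4387 to 9379 CPM).

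Postnatal Littman Cre+ pups had higher levels of part of the respiratory chain than Cre- pups. The data show 11 of 77 tested members higher and 0 lower, against 7.80% of all genes called, 4.56% higher and 3.24% lower. The called genes were spread over complexes I (2 of 35), III (2 of 7), IV (4 of 10), V (2 of 17) and Cox7a2l, with none of the 4 complex II genes. The log2 fold change was positive for 69 of the 77 members, with a median of 0.31, and the median over all genes was -0.00. All 10 complex IV genes had a positive fold change, with a median of 0.41.

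Uqcrfs1, the Rieske iron-sulphur protein of complex III, had 160.0, 174.1, 135.9, 136.4 and 157.8 CPM in Cre+ pups, against 108.9, 104.8, 92.8, 87.1 and 48.7 CPM in Cre- pups. Every Cre+ library was above every Cre- library, and Uqcrfs1 rose by 0.77 ± 0.150 on the log2 scale (SE; adjusted p = 0.000296). Cox4i1 had 522.4, 314.5, 415.3, 469.1 and 552.4 CPM in Cre+ pups, against 368.5, 346.8, 315.5, 209.6 and 249.7 CPM in Cre- pups. Replicate 2 of the Cre+ pups was below 3 of the Cre- libraries, and the rise was 0.61 ± 0.126 (SE; adjusted p = 0.000637). Cox6b1, an accessory subunit at the intermembrane face of complex IV, had 207.5, 151.6, 146.1, 177.1 and 172.6 CPM in Cre+ pups, against 128.4, 123.7, 100.7, 106.1 and 124.8 CPM in Cre- pups. Its groups did not overlap, and the rise was 0.56 ± 0.132 (SE; adjusted p = 0.00346).

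In complex I, Ndufa8 rose by 0.64, with 110.8 ± 24.3 CPM in Cre+ and 71.0 ± 7.58 CPM in Cre- pups (SD, n = 5 each; adjusted p = 0.00742). Ndufa1 rose by 0.67, with 111.5 ± 32.3 against 69.9 ± 33.4 CPM, and its groups overlapped (adjusted p = 0.0286). In complex IV, Cox7b rose by 0.61 (adjusted p = 0.0453) and Ndufa4, once assigned to complex I, by 0.55 (adjusted p = 0.0475). Uqcrq, a small subunit of complex III, rose by 0.52 (adjusted p = 0.0420). In ATP synthase, Atp5c1, the gamma subunit of the central stalk, rose by 0.53 (adjusted p = 0.0113) and Atp5g3 by 0.50 (adjusted p = 0.0107).

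Cox7a2l, a relative of Cox7a2 that helps join complexes III and IV into supercomplexes, had 387.4, 342.6, 392.2, 308.7 and 337.9 CPM in Cre+ pups, against 329.4, 287.6, 222.7, 215.0 and 252.7 CPM in Cre- pups. Replicate 1 of the Cre- pups fell within the Cre+ range, and the rise was 0.44 ± 0.120 (SE; adjusted p = 0.0141). For 4 members the groups did not overlap, all higher in Cre+ pups, against 3.04% of all genes higher without overlap. The summed subunits were 7883 ± 1180 CPM in Cre+ and 6251 ± 519 CPM in Cre- pups (SD, n = 5 each). That is a log2 ratio of 0.33, and the ranges overlapped because Cre+ replicate 2 had 6315 CPM.

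Other gene groups moved in the same libraries. Of the cytosolic ribosomal protein genes, 42 of 80 rose, with a median log2 fold change of 0.37. Of 9 mRNAs encoded by mitochondrial DNA, 4 rose (mt-Nd6, mt-Nd4, mt-Nd5 and mt-Cytb), with a median of 0.28. Among 7 carriers and channels, Slc25a4 (0.45) and Slc25a5 (0.32), which exchange ATP for ADP across the inner membrane, rose. Of 12 glycolysis genes, Gapdh (0.51), Hk2 (0.41) and Pfkl (0.96) rose, and none of 15 citrate cycle genes was called. The 9-gene microglia list, which includes Cx3cr1, summed to 18153 to 23122 CPM in Cre+ and 25740 to 30379 CPM in Cre- pups. The monocyte list, 4 of 5 genes detected with Vcan at 0, summed to 22.5 to 71.5 CPM in Cre+ and 2.65 to 53.8 CPM in Cre- pups, and the 10 immediate early genes to 469.1 to 1375.8 CPM in Cre+ and 457.9 to 536.1 CPM in Cre- pups. Neutrophil markers, with Ly6g and Retnlg at 0, summed to 0 in Cre+ and 0 to 1158.6 CPM in Cre- pups. Their part in the result was not tested. In bulk samples a smaller number of cells of a type and less RNA per cell cannot be told apart.

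The number of called members depended on single libraries. It was 19 without Cre+ replicate 2, 6 without Cre+ replicate 1 or Cre+ replicate 5, and 7 without Cre- replicate 3, while Uqcrfs1, Cox4i1 and Cox6b1 were called in all 10 fits that left out 1 library. Of these 10 fits the call was lost in 8 for Ndufa4, 7 for Cox7b, 6 for Ndufa1, 4 for Uqcrq, 2 for Cox7a2l (without Cre- replicate 3 or 4), and 1 each for Ndufa8 and Atp5g3 (without Cre+ replicate 1) and Atp5c1 (without Cre+ replicate 5).

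**Figure D2:**
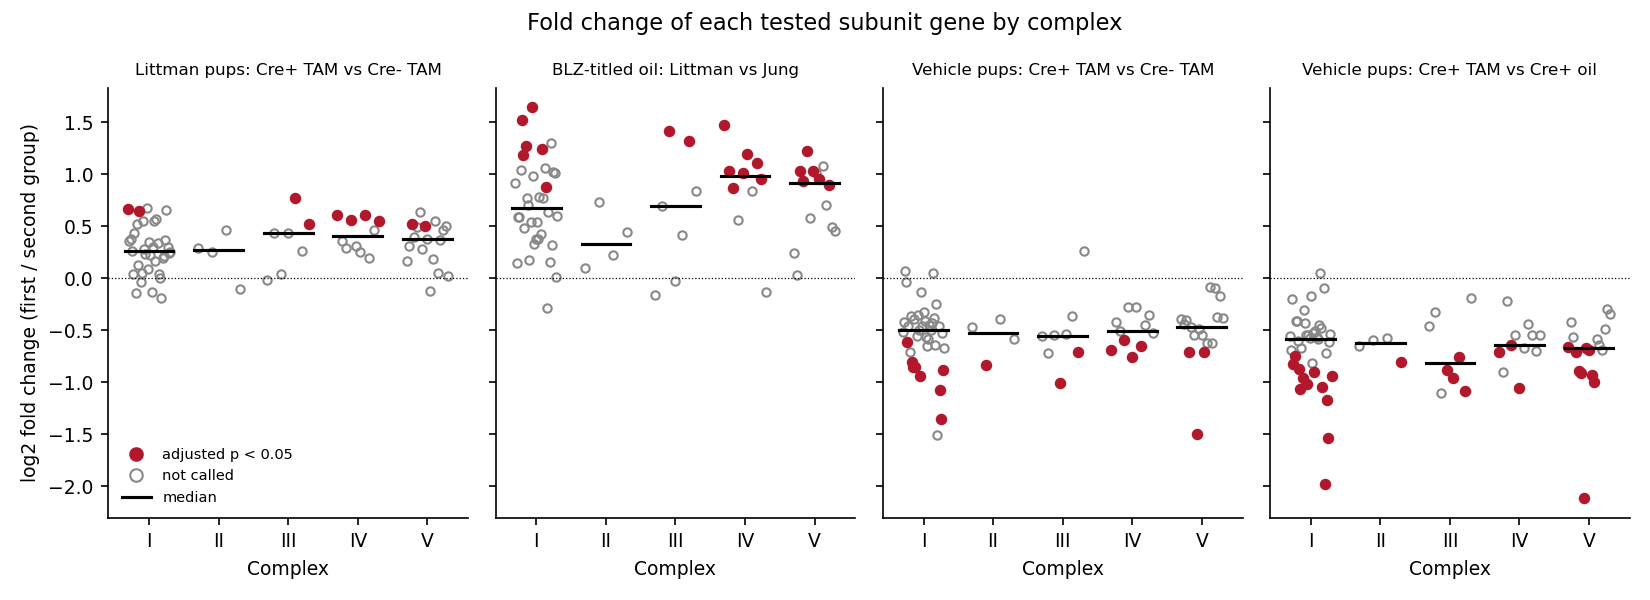
Log2 fold change (y axis) of each tested subunit gene (point) by complex (x axis) in 4 comparisons, with the first-named group over the second; filled red points passed an adjusted p of 0.05 and the black line is the complex median. Called subunits lie above 0 in postnatal Littman and BLZ-titled oil libraries and below 0 in vehicle Cre+ tamoxifen libraries.

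In the vehicle-injected pups, the same Cre and tamoxifen contrast ran the other way. Vehicle Cre+ tamoxifen pups had 19 of 80 tested members lower than Cre- tamoxifen pups and 0 higher, against 27.2% of all genes called, 14.3% higher and 12.9% lower. Set against Cre+ pups given oil, the same tamoxifen libraries had 30 of 80 lower and 0 higher, against 31.4% of all genes called, 16.1% higher and 15.3% lower. These comparisons share the 4 Cre+ tamoxifen libraries and are not independent. The log2 fold change was negative for 77 of 80 members in each, with a median of -0.51 against Cre- and -0.64 against oil, and the medians over all genes were -0.01 and 0.00.

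The called genes came from every complex. Against Cre- pups, 8 of 37 complex I, 1 of 4 complex II, 2 of 8 complex III, 4 of 11 complex IV and 3 of 17 complex V genes fell, with Cox7a2l. Against oil, 12 of 37 complex I, 1 of 4 complex II, 4 of 8 complex III, 3 of 11 complex IV and 9 of 17 complex V genes fell, with Cox7a2l. Neither of the 2 tested assembly factors was called in these comparisons.

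Cox7a2l had 165.2, 129.2, 188.5 and 120.6 CPM in vehicle Cre+ tamoxifen pups, against 339.6, 494.5, 490.0 and 538.7 CPM in Cre+ oil pups and 339.4, 369.8, 396.2, 348.4 and 378.0 CPM in Cre- tamoxifen pups. The Cre+ tamoxifen libraries were the lowest 4, with no overlap. The log2 fold change was -1.25 ± 0.233 against Cre- (adjusted p = 0.00013) and -1.59 ± 0.243 against oil (SE; adjusted p = 7.46e-06). It was called in every fit that left out 1 library.

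Atp5g2, another gene for subunit c of the rotor, had 18.8, 50.8, 29.0 and 30.2 CPM in Cre+ tamoxifen pups, against 164.1, 79.8, 87.5 and 229.7 CPM in Cre+ oil and 55.4, 68.3, 142.6, 56.0 and 122.1 CPM in Cre- tamoxifen pups. All 4 were below every library of the other groups. The log2 fold change was -1.49 ± 0.409 against Cre- (adjusted p = 0.00648) and -2.11 ± 0.410 against oil (SE; adjusted p = 0.000191). Atp5g1, Atp5g2 and Atp5g3 encode the same mature subunit c and have near-identical copies elsewhere in the genome, so their counts carry that uncertainty.

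Ndufs8, an iron-sulphur protein on the electron path of complex I, had 45.1, 55.4, 10.9 and 22.6 CPM in Cre+ tamoxifen pups, against 90.6, 71.8, 134.2 and 95.1 CPM in Cre+ oil and 62.3, 85.3, 110.9, 62.2 and 110.5 CPM in Cre- tamoxifen pups. The groups did not overlap, and the log2 fold changes were -1.35 against Cre- (adjusted p = 0.0056) and -1.53 against oil (adjusted p = 0.0023). Ndufs7, which carries the last iron-sulphur cluster before ubiquinone, had 26.3, 50.8, 39.9 and 22.6 CPM in Cre+ tamoxifen pups, against 90.6, 47.9, 87.5 and 95.1 CPM in Cre+ oil and 69.3, 74.0, 58.1, 99.5 and 81.4 CPM in Cre- tamoxifen pups. Replicate 2 of the Cre+ oil pups was below the highest Cre+ tamoxifen library, and the log2 fold changes were -1.08 (adjusted p = 0.0122) against Cre- and -1.17 (adjusted p = 0.00895) against oil.

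Ndufb11, an accessory subunit of the membrane arm of complex I, had 120.2, 92.3, 72.5 and 67.9 CPM in Cre+ tamoxifen pups, against 158.5, 199.4, 204.2 and 166.4 CPM in Cre+ oil and 187.0, 170.7, 153.2, 136.9 and 215.2 CPM in Cre- tamoxifen pups. The Cre+ tamoxifen libraries were again the lowest 4, and the log2 fold changes were -0.93 (adjusted p = 0.00366) against Cre- and -1.01 against oil. Ndufs5, a small accessory subunit of complex I, was among the 6 most lowered genes against oil only, at 3.75, 23.08, 3.63 and 15.08 CPM in Cre+ tamoxifen pups, against 22.64, 55.83, 29.17 and 71.3 CPM in Cre+ oil pups. Its log2 fold change was -1.98 ± 0.634 (SE; adjusted p = 0.0165) at a level of few counts per library.

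In complex III, Uqcrb, a ubiquinone-binding subunit, had 56.3, 78.5, 43.5 and 75.4 CPM in Cre+ tamoxifen pups, against 118.9, 143.6, 99.2 and 95.1 CPM in Cre+ oil and 97.0, 102.4, 132.1, 136.9 and 151.2 CPM in Cre- tamoxifen pups. There was no overlap, and the log2 fold change against Cre- was -1.0 ± 0.258 (SE; adjusted p = 0.0039). Uqcrh, the hinge protein beside cytochrome c1, had 157.7, 193.9, 108.8 and 120.6 CPM in Cre+ tamoxifen pups, against 203.8, 446.7, 320.9 and 277.3 CPM in Cre+ oil and 207.8, 256.0, 253.6, 161.8 and 308.2 CPM in Cre- tamoxifen pups. One Cre- library was within the Cre+ tamoxifen range and no oil library was. The log2 fold change of Uqcrh was -0.71 against Cre- and -1.08 ± 0.269 against oil (SE; adjusted p = 0.00246).

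Cox4i1, the ubiquitous subunit 4 isoform, had 360.4, 406.2, 242.9 and 286.5 CPM in Cre+ tamoxifen pups, against 486.8, 542.4, 618.4 and 467.4 CPM in Cre+ oil and 408.6, 523.4, 470.2, 597.3 and 622.3 CPM in Cre- tamoxifen pups. The groups did not overlap, and the log2 fold changes were -0.69 ± 0.209 (adjusted p = 0.0125) against Cre- and -0.70 ± 0.220 (SE; adjusted p = 0.0139) against oil. Without Cre+ tamoxifen replicate 3, the adjusted p against Cre- was 0.0807. Cox6c, a regulatory subunit of complex IV, fell by 0.75 against Cre- and by 1.05 against oil on the log2 scale. Cox6a1, another nuclear-encoded complex IV subunit, fell by 0.59 against Cre- and by 0.64 against oil.

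Succinate dehydrogenase contributed 1 called gene to each comparison. Sdhb, its iron-sulphur subunit, fell by 0.83 against Cre-, and Sdhd, a membrane anchor, fell by 0.81 against oil. Of the 19 genes called against Cre- and the 30 called against oil, 16 were shared, which is 84.2% of the first and 53.3% of the second list. As described above, the shared libraries link the lists. The members with a positive fold change against Cre- pups were Uqcrq (0.26), Ndufa11 (0.07) and Ndufs1 (0.05), and none was called.

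**Figure D3:**
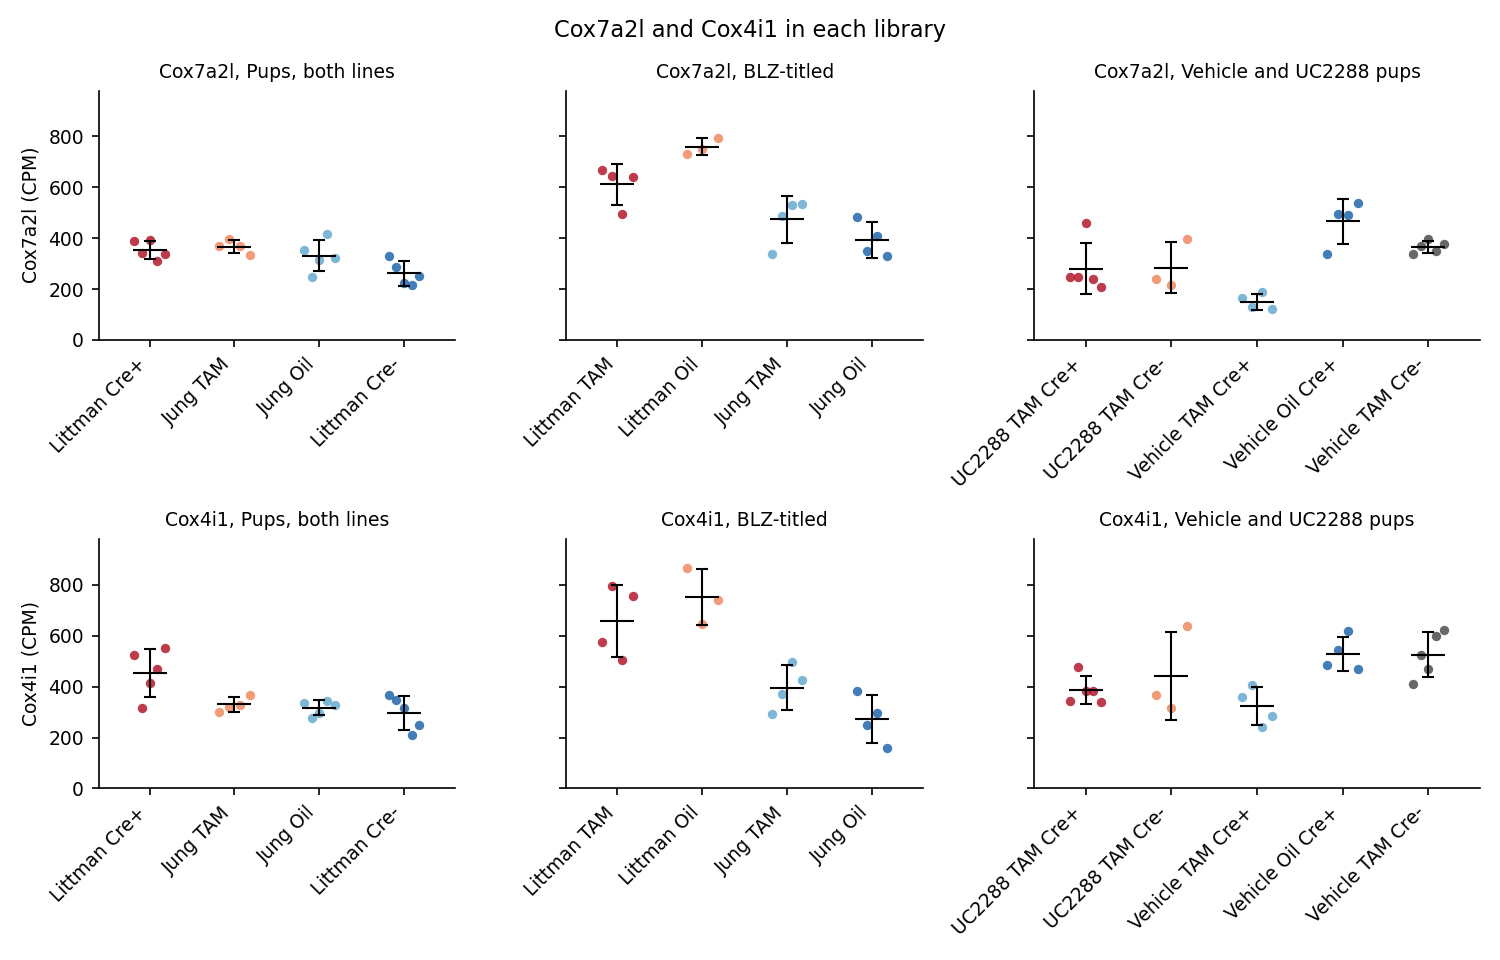
CPM (y axis, linear from 0) of Cox7a2l (top) and Cox4i1 (bottom) in each library (points) of 3 count tables by group (x axis), with bars for the group mean and SD. The 4 vehicle Cre+ tamoxifen libraries hold 120.6 to 188.5 CPM of Cox7a2l, below every other library of that table.

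Summed over the 5 complexes, the subunits reached 8463, 9379, 6910 and 7925 CPM in vehicle Cre+ tamoxifen pups, against 11835, 12547, 13884 and 13103 CPM in Cre+ oil pups and 10729, 11486, 11770, 11498 and 12423 CPM in Cre- tamoxifen pups. The Cre+ tamoxifen libraries were the lowest 4, with a log2 ratio of -0.65 against oil and -0.50 against Cre-. By complex the log2 ratio against oil lay between -0.64 and -0.68. Against Cre- it was -0.53 for complex I, -0.59 for II, -0.40 for III, -0.53 for IV and -0.47 for V, and the groups overlapped for complex III. The groups did not overlap for 19 members against Cre- and 28 against oil, all lower in Cre+ tamoxifen pups, where 11.3% and 15.0% of all genes were lower without overlap.

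The vehicle-injected groups other than Cre+ tamoxifen were not told apart by any member. Cre+ pups given oil and Cre- pups given tamoxifen differed in 0 of 80 members, with 0% of all genes called by edgeR. At an unadjusted p below 0.05, 1 member was higher in Cre+ oil pups and 0 were lower, and DESeq2 and limma-voom each called 0. The median log2 fold change was 0.12. Summed complex V genes were higher in Cre+ oil than in Cre- tamoxifen pups without overlap (log2 ratio 0.20), while the other complexes overlapped. A count of 0 called members does not show equal levels.

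Other RNAs of the energy and translation machinery were lower in the same vehicle Cre+ tamoxifen libraries. All 10 mRNAs from mitochondrial DNA fell in both comparisons, with a median log2 fold change of -1.19 against Cre- and -1.44 against oil, and their log2 ratio of sums was -1.05 and -1.16. Of 83 cytosolic ribosomal protein genes, 76 fell in each comparison, with medians of -0.84 and -0.97. The subunits stood at 0.159 ± 0.015 per unit of ribosomal protein CPM in Cre+ tamoxifen pups, against 0.127 ± 0.008 in Cre+ oil and 0.126 ± 0.005 in Cre- tamoxifen pups (SD, n = 4, 4 and 5). Mitochondrially encoded mRNA per subunit CPM was 3.73 ± 0.64 in Cre+ tamoxifen and 5.45 ± 0.33 in Cre- tamoxifen pups (SD). Among 7 carriers and channels, Atpif1, the inhibitor of ATP synthase, Vdac3 and Slc25a5 fell in both, Atpif1 by 0.94 against Cre- and by 1.21 against oil. Of 11 glycolysis genes, Ldhb fell by 1.46 and Hk2 rose by 0.62 against Cre-, and Ldhb, Pgk1 and Tpi1 fell against oil. Of 12 citrate cycle genes, Pdhb fell by 0.74 and Dlst rose by 0.68 against Cre-, and none was called against oil.

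Marker lists of the sorted cells differed too. The microglia list summed to 7074 to 7874 CPM in vehicle Cre+ tamoxifen pups, against 18776 to 22839 CPM in Cre+ oil and 17116 to 19344 CPM in Cre- tamoxifen pups. The 5 monocyte markers summed to 105.6 to 281.6 CPM in Cre+ tamoxifen pups, against 0 to 23.9 CPM in Cre+ oil and 0 to 28.4 CPM in Cre- tamoxifen pups. Border macrophage markers, a type that the CD206- gate is meant to remove, had 5 of 6 detected with Lyve1 at 0 and summed to 90.5 to 189.2 CPM in Cre+ tamoxifen pups, against 332.7 to 408.4 CPM and 324.3 to 533.3 CPM in the oil and Cre- groups. Astrocyte markers, 5 of 6 detected with Gfap at 0, summed to 64.6 to 105.6 CPM in Cre+ tamoxifen pups, against 34.0 to 39.9 CPM in Cre+ oil and 22.8 to 62.2 CPM in Cre- tamoxifen pups, and the neutrophil markers summed to 0. Cdkn1a was 825.5 CPM in Cre+ tamoxifen and 113.1 CPM in Cre- tamoxifen pups. Genes detected per library were 11145 to 12681 in Cre+ tamoxifen pups, against 9948 to 11107 in Cre+ oil and 10591 to 11143 in Cre- tamoxifen pups. This also set the Cre+ tamoxifen libraries apart without overlap. The part of these differences in the fall of the subunits was not tested.

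Without Cre+ tamoxifen replicate 3, 8 members were called against Cre- and 11 against oil. Against Cre-, 12 were called without Cre+ tamoxifen replicate 4 or without Cre- replicate 3, and against oil 17 without oil replicate 3. Of the 9 fits against Cre- that left out 1 library, the call was lost in 6 for Sdhb and for Uqcrh, 4 for Cox6a1, 3 for Cox6c and 1 for Ndufs8 and for Cox4i1 (without Cre+ tamoxifen replicate 3). Of the 8 fits against oil it was lost in 7 for Sdhd, 4 for Cox6a1, 3 for Ndufs5 and 2 for Cox4i1 (without Cre+ tamoxifen replicate 3 or oil replicate 3). Counting each library by its total, without TMM, left 6 members called against Cre- and 17 against oil, and moved the median of all genes by 0.21 and 0.16 on the log2 scale, with member medians of -0.29 and -0.49.

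Whether the Cre+ against Cre- effect differed between the pup experiments was tested in a single edgeR fit of both tables. This fit was chosen after the separate results were known. A called difference need not mean opposite signs, as for Uqcrb, with effects of 0.04 in postnatal and -1.06 in vehicle-injected pups. The fit held 40 libraries and 7132 tested genes. The postnatal effect minus the vehicle-pup effect was above 0 and called for 36 of 81 members and below 0 and called for 0, against 17.9% of all genes called and 9.17% called above 0. The median difference was 0.88 over the members and -0.00 over all genes. An offset of a whole table that acts on Cre+ and Cre- libraries alike drops out of this difference, but age, injection schedule, vehicle and sequencing run may also differ between the tables and cannot be told apart from the experiment.

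For Cox7a2l the difference was 1.72 ± 0.255 on the log2 scale (SE; adjusted p = 2.08e-06), from an effect of 0.43 in the postnatal and -1.28 in the vehicle-injected pups. Cox4i1 differed by 1.34 ± 0.249 (adjusted p = 7.22e-05), with effects of 0.61 and -0.73 in those experiments. Ndufs8 differed by 2.05 ± 0.455 (SE; adjusted p = 0.000837), with effects of 0.65 and -1.40. Cox7b, a small subunit of complex IV, differed by 1.30 ± 0.301 (SE; adjusted p = 0.00132). Cox4i1, Cox7a2l and Cox7b were called in both experiments with opposite signs, which is 27.3% of the 11 and 15.8% of the 19 genes called. The number called lay between 26 and 40 when a single library was left out, the 26 without vehicle Cre+ tamoxifen replicate 3.

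**Figure D4:**
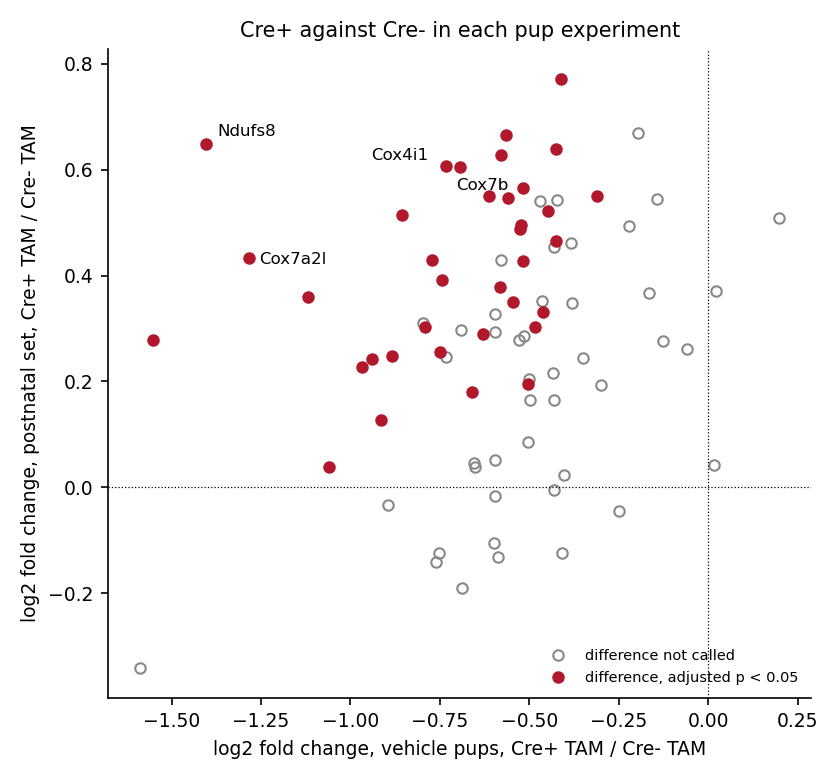
Log2 fold change of Cre+ over Cre- pups, both given tamoxifen, in the postnatal table (y axis) and in vehicle-injected pups (x axis), for each of the 81 members tested in the joint fit (point); filled red points have a difference between the experiments with an adjusted p below 0.05. Most points lie left of 0 on the x axis and above 0 on the y axis, among them Cox7a2l at -1.28 and 0.43.

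UC2288 was set against vehicle to ask what the p21-lowering compound does in Cre+ tamoxifen pups, and 1 member passed the test. UC2288 against vehicle in Cre+ tamoxifen pups gave 1 of 80 members higher and 0 lower, against 0.727% of all genes called. A positive log2 fold change was seen for 76 of 80 members, with a median of 0.42 beside 0.02 over all genes. The vehicle libraries are the same 4 that were low against oil and Cre- pups, so these values are not independent of those comparisons.

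Ndufa13, a complex I subunit also known as GRIM-19, had 175.7, 287.9, 205.4, 306.8 and 274.9 CPM in UC2288-treated Cre+ pups, against 138.9, 175.4, 105.1 and 98.0 CPM in vehicle Cre+ tamoxifen pups. The lowest UC2288 library lay just above the highest vehicle library, and the rise was 0.92 ± 0.228 (SE; adjusted p = 0.0462). It was not called in 7 of the 9 fits that left out 1 library, among them the fit without UC2288 Cre+ replicate 3, which called 0 members and had a median of 0.44, with 76 of 79 positive. Cox7a2l had 249.3, 246.0, 460.4, 238.6 and 209.4 CPM in UC2288-treated Cre+ pups, against 165.2, 129.2, 188.5 and 120.6 CPM in vehicle Cre+ tamoxifen pups. Replicate 3, the library that stood apart, was the highest, the groups did not overlap, and the log2 fold change of 0.86 ± 0.237 was not called (SE; adjusted p = 0.0641). Without that library it was 0.62 (adjusted p = 0.176). In 6 members the groups did not overlap, all higher with UC2288, against 2.48% of all genes higher without overlap. Without replicate 3 this held for 9 members, for which the share of all genes is not given. With a library fewer, groups separate more easily for any gene, so the 9 cannot be read as a stronger effect.

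The summed subunits were 9370, 12854, 10489, 14147 and 9339 CPM in UC2288-treated Cre+ pups, against 8463, 9379, 6910 and 7925 CPM in vehicle Cre+ tamoxifen pups. Replicates 1 and 5 of the UC2288 group fell within the vehicle range, and the log2 ratio was 0.46, or 0.49 without UC2288 replicate 3. Cdkn1a was 687.6 CPM with UC2288 and 825.5 CPM with vehicle in Cre+ tamoxifen pups and was not called (log2 fold change -0.26, adjusted p = 0.608, or -0.20 and 0.754 without UC2288 replicate 3). Of the cytosolic ribosomal protein genes, 4 of 83 rose, and none of 10 mRNAs from mitochondrial DNA was called, with medians of 0.57 and 0.68. Without UC2288 replicate 3, 2 of the 83 and none of the 10 were called, with medians of 0.53 and 0.55. The microglia list summed to 7245 to 20298 CPM with UC2288, the highest value again in replicate 3, and to 7074 to 7874 CPM with vehicle. Its part in the result was not tested.

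In the Cre- tamoxifen pups, 67 of 80 members had a negative fold change with UC2288 against vehicle, with a median of -0.34, and 0 were called, against 0.0202% of all genes. At an unadjusted p below 0.05, 0 were higher and 7 lower, and without the share of all genes at that p this shows no excess. UC2288-treated Cre- replicates 1 and 2 had 7921 and 7828 CPM of summed subunits and replicate 3 had 12693 CPM, against 10729 to 12423 CPM in vehicle Cre- pups. By counts of Xist against Y-linked genes, UC2288-treated Cre- replicates 1 and 2 were male and replicate 3 was female, and the vehicle Cre- group held both sexes. The part of sex was not tested. The log2 ratio of the sums was -0.29 over the 3 libraries and -0.56 without replicate 3. In 5 members the groups did not overlap, all lower with UC2288, against 2.24% of all genes lower without overlap.

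Among UC2288-treated pups, Cre+ against Cre- called 0 of 80 members, against 4.00% of all genes, with a median of 0.21 and 3 members higher and 0 lower at an unadjusted p below 0.05. Without UC2288 Cre+ replicate 3 it called 0 of 79, with a median of 0.19 and 5 higher and 0 lower at that p. The UC2288 effect in Cre+ minus that in Cre- pups called 0 of 80, against 1.94% of all genes, with a median of 0.71 and 30 members above 0 at an unadjusted p below 0.05. At that p, 68 of 83 cytosolic ribosomal protein genes were above 0 as well. The share of all genes at that p is not given, so neither count can show an excess over other genes. The members nearest to the threshold for a call were Cox7a2l (1.21, adjusted p = 0.0514) and Ndufa13 (1.18, adjusted p = 0.0559). The count of 0 called members rested on single libraries. It became 19 without UC2288 Cre- replicate 3, 11 without UC2288 Cre+ replicate 1 and 5 without UC2288 Cre+ replicate 5. The shares of all genes called in these fits are not given, so 1.94% is no reference for them. Leaving out UC2288 Cre+ replicate 3 called 0 members, with a median of 0.74 and 30 above 0 at an unadjusted p below 0.05. With all libraries DESeq2 called 3 members in this interaction and limma-voom 1, and both called 0 in the preceding 2 comparisons.

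In the BLZ-titled table, the oil-treated Littman libraries had higher levels of the respiratory chain than the oil-treated Jung libraries. They had 22 of 74 tested members higher and 0 lower, against 9.12% of all genes called, 6.72% higher and 2.40% lower. A positive log2 fold change was seen for 67 of 74 members, with a median of 0.72 beside -0.05 over all genes. By complex, 6 of 34 complex I, 2 of 7 complex III, 7 of 10 complex IV and 6 of 14 complex V genes rose with Cox7a2l, and none of 4 complex II genes or 4 assembly factors was called. The groups differ in the line, in the Rosa26YFP allele and, by their labels, in BLZ945, which cannot be told apart. Their total counts (226005 to 232991 in Littman oil, 189486 to 224692 in Jung oil) and TMM factors (0.902 to 0.913 against 1.03 to 1.19) did not overlap either. By counts of Xist against Y-linked genes, Jung oil replicate 4 was female and the other oil libraries of both lines were male. The part of depth, scaling and sex was not tested. The oil libraries are also those of the tamoxifen comparisons of this table, given further on.

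Cox4i1 had 865.4, 647.2 and 741.5 CPM in Littman oil libraries, against 382.6, 251.2, 297.8 and 159.2 CPM in Jung oil libraries. All 3 Littman libraries were above all 4 Jung libraries, and the difference was 1.47 ± 0.239 on the log2 scale (SE; adjusted p = 8.8e-05). Ndufa2, a small accessory subunit of complex I, had 342.0, 255.8 and 317.8 CPM in Littman oil libraries, against 151.9, 98.7, 123.6 and 54.7 CPM in Jung oil libraries. It differed without overlap by 1.52 ± 0.263 (SE; adjusted p = 0.000188). Ndufa6, a complex I accessory subunit of the LYR family, had 419.8, 302.7 and 328.4 CPM in Littman oil libraries, against 151.9, 130.1, 196.7 and 104.5 CPM in Jung oil libraries. It too did not overlap, at 1.27 ± 0.231 (SE; adjusted p = 0.000341).

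Uqcrh had 725.5, 386.2 and 656.8 CPM in Littman oil libraries, against 371.3, 175.0, 297.8 and 114.4 CPM in Jung oil libraries. The lowest Littman library was just above the highest Jung library, and the difference was 1.31 ± 0.277 (SE; adjusted p = 0.00163). Cox7a2l had 730.7, 751.6 and 794.5 CPM in Littman oil libraries, against 483.9, 349.9, 410.2 and 328.3 CPM in Jung oil libraries, without overlap. Its difference was 0.95 ± 0.200 (SE; adjusted p = 0.00157). The largest log2 fold change was that of Ndufb1-ps (1.64 ± 0.404, adjusted p = 0.00734), listed as a protein-coding gene of complex I although its symbol marks it as a copy, so its reads may belong to a near-identical gene. Uqcrb was higher by 1.41 (adjusted p = 0.0131).

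Summed over complexes I to V, the subunits reached 12706, 11749 and 13019 CPM in Littman oil libraries, against 9058, 6415, 9379 and 4387 CPM in Jung oil libraries, a log2 ratio of 0.77 without overlap. Complex IV had the largest ratio of the 5 complexes (0.99) and complex II the smallest (0.35, overlapping). In 31 of 74 members the groups did not overlap, all higher in Littman oil libraries, against 11.2% of all genes higher without overlap. Of 79 cytosolic ribosomal protein genes 74 rose, with a median of 1.27, and of 11 mRNAs from mitochondrial DNA mt-Co1 (0.97) and mt-Co2 (0.98) rose. Per unit of ribosomal protein CPM the subunits stood at 0.129 in Littman oil and 0.184 in Jung oil libraries. Slc25a3, the phosphate carrier, rose by 0.87, and none of 13 glycolysis or 12 citrate cycle genes was called.

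The microglia list overlapped, at 19603 to 21158 CPM in Littman oil and 19032 to 25240 CPM in Jung oil libraries. The monocyte list summed to 41.5 to 180.1 CPM in Littman oil and 5.63 to 16.9 CPM in Jung oil libraries. Neutrophil markers were at 0 in all but 1 Littman oil library, where they summed to 3405.8 CPM. The part of these lists in the difference was not tested. Leaving out single libraries gave 9 called members without Jung oil replicate 2, 11 without Jung oil replicate 4, and 12, 14 and 12 without Littman oil replicates 1, 2 and 3. Cox4i1, Cox7a2l, Ndufa2, Ndufa6, Uqcrh, Cox5b and Cox7c were called in all 7 of these fits, while Uqcrb was lost in 3 and Ndufb1-ps in 1 of them (without Littman oil replicate 2). Without TMM scaling 12 members were called and the median of all genes moved by -0.30.

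**Figure D5:**
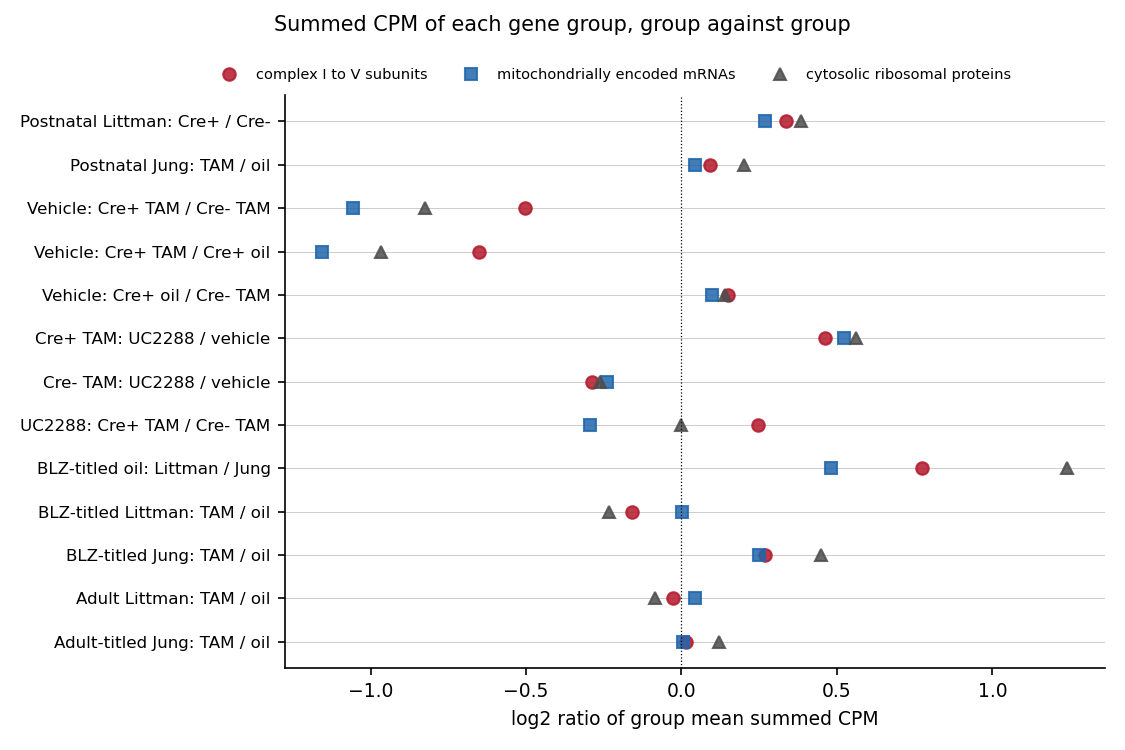
Log2 ratio of group mean summed CPM (x axis) in 13 comparisons (rows, first-named group over second) for all respiratory chain subunits, the mRNAs of mitochondrial DNA and the cytosolic ribosomal proteins. In vehicle Cre+ tamoxifen against Cre- tamoxifen pups the ratios are -0.50, -1.05 and -0.83, and in BLZ-titled Littman against Jung oil libraries 0.77, 0.48 and 1.24.

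Tamoxifen against oil within a line called no member outside the vehicle-injected pups, and DESeq2 and limma-voom called none either. In BLZ-titled Littman libraries 22 of 74 members were positive and 52 negative, with a median of -0.18, and 0 were called, against 0.0581% of all genes. At an unadjusted p below 0.05, 1 was higher and 2 lower. Subunit sums were 10140, 11985, 10258 and 12357 CPM with tamoxifen, against 12706, 11749 and 13019 CPM with oil, and the groups overlapped, with a log2 ratio of -0.16, or -0.20 without tamoxifen replicate 4. Complex I (-0.16), complex V (-0.20) and Cox7a2l (-0.31, log2 ratios of summed or mean CPM) did not overlap and were lower with tamoxifen. By counts of Xist against Y-linked genes, tamoxifen replicates 2, 3 and 4 were female, while tamoxifen replicate 1 and all oil libraries were male. Sex and tamoxifen are thus partly mixed here and in the Littman minus Jung difference given below, and the part of sex was not tested. For 8 members tamoxifen libraries were all lower than oil libraries, against 4.84% of all genes.

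In BLZ-titled Jung libraries 59 of 74 members were positive with tamoxifen, with a median of 0.29, and 0 were called, with 0% of all genes called. At an unadjusted p below 0.05, 10 were higher and 0 lower. Here and in the line difference below, the share of all genes at that p is not given, so such counts cannot show an excess over other genes. The summed subunits were 6120, 10265, 9295 and 9570 CPM with tamoxifen, against 9058, 6415, 9379 and 4387 CPM with oil, so both groups held low libraries. The log2 ratio of 0.27 rested on single libraries. It was 0.09 without oil replicate 4, where the median of the members was 0.11 and none was higher at an unadjusted p below 0.05. It was 0.41 without tamoxifen replicate 1, 0.40 without oil replicate 1 and 0.41 without oil replicate 3. The tamoxifen effect in the Littman minus that in the Jung line called 0 of 74 members, with 0% of all genes called, a median of -0.45, and 13 members lower and 0 higher at an unadjusted p below 0.05. The log2 ratio of sums in this difference was -0.43, or -0.25 without Jung oil replicate 4, -0.57 without Jung tamoxifen replicate 1 and -0.47 without Littman tamoxifen replicate 4. Without Jung oil replicate 4, 1 member was higher and 3 lower at that p.

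In postnatal Jung pups, 54 of 77 members were positive with tamoxifen against oil, with a median of 0.10, and 0 were called, against 0.0848% of all genes. At an unadjusted p below 0.05, 3 were higher and 0 lower. Cox7a2l had 369.5, 397.7, 368.1 and 332.6 CPM in tamoxifen pups, against 352.5, 248.6, 314.8, 414.8 and 323.9 CPM in oil pups, and the oil range enclosed the tamoxifen range. The summed subunits were 6447 ± 177 CPM in tamoxifen (SD, n = 4) and 6056 ± 298 CPM in oil pups (SD, n = 5), a log2 ratio of 0.09, or 0.10 without tamoxifen replicate 1. The Littman Cre+ against Cre- effect minus the Jung tamoxifen effect called 0 of 77 members, against 0.353% of all genes, with a median of 0.23 and 12 members higher and 0 lower at an unadjusted p below 0.05. The share of all genes at that p is not given, so the 12 cannot be read as an excess over other genes. The log2 ratio of sums in this difference was 0.24, or 0.23 without Jung tamoxifen replicate 1. The rise in Littman pups was therefore not shown to differ from the Jung effect for any member, and DESeq2 and limma-voom called none. Jung oil pups and Littman Cre- pups differed in 0 of 77, against 0.791% of all genes, with 1 member higher and 2 lower at an unadjusted p below 0.05.

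In adults without a BLZ title, 0 of 68 members were called in the Littman line, against 0.0181% of all genes, with 2 higher and 1 lower at an unadjusted p below 0.05. The summed subunits were 5923, 5090 and 5841 CPM with tamoxifen, against 6488, 6163, 3880 and 6390 CPM with oil. In the adult-titled Jung libraries 0 of 60 were called, with 0% of all genes called, and 0 were higher and 2 lower at an unadjusted p below 0.05. Their sums were 3697, 5855, 6070 and 5967 CPM with tamoxifen, against 4375, 5685, 4466 and 6842 CPM with oil. In both lines the groups overlapped, and the median log2 fold changes were -0.01 in Littman and 0.05 in Jung libraries. Without adult Littman oil replicate 3 the Littman median was -0.16, with 0 of 65 called, and the log2 ratio of sums was -0.18 in place of -0.03. Without adult-titled Jung tamoxifen replicate 1 the Jung median was 0.20, with 0 of 68 called, and the log2 ratio of sums was 0.16 in place of 0.01.

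Over the 5 comparisons within a table that called any member, Cox4i1 and Cox7a2l were called in 4, and Atp5d, Cox6a1, Cox6c, Ndufa13, Ndufa6, Uqcrb and Uqcrh in 3. Of the 92 members, untested ones included, 14 were called in 2 of these comparisons, 26 in 1 and 43 in none. Of those 43, 4 were called in the joint fit of the pup experiments, namely Atp5b, Ndufc1, Sdhc and Uqcr10. The 3 comparisons with vehicle Cre+ tamoxifen pups share those libraries, so these counts describe the data and are not independent repeats.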

How the data were processed

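Per the labels, each library was made by CEL-Seq2 from 15 of 30 uL of lysate, with a 10-nucleotide molecular identifier and 81-nucleotide inserts. The authors deposited raw whole-number counts per gene in 5 tables, and HISAT2, featureCounts, Trim Galore, UMI-tools and the build GRCm38 appear in the submitters' processing notes. The sources used here do not give the strand setting or the collapsing of identifiers.

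Genes passing edgeR's filterByExpr within a table (version 4.0.16, R 4.3.3) were scaled by TMM and tested by quasi-likelihood with all groups of the table in 1 fit. P-values were Benjamini-Hochberg adjusted over the tested genes, and an adjusted p below 0.05 was called. CPM are scaled to the counts of tested genes, which held 88.8% to 95.6% of a library's counts, times its TMM factor. SE was the log2 fold change over the root of F. Other settings were DESeq2 1.42.0, limma 3.58.1 (voom), other scalings and filters, a replicate block, a sex covariate and leaving out each library. Scripts were tested on simulated data. Only counting and library spread enter the errors.

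Named per comparison were all called members where 8 or fewer were called, otherwise the 6 largest changes each way at 20 CPM or more, beside the highest subunits, isoform pairs and label checks. Other genes were named after their values were seen. Members, lists and comparisons were chosen with earlier results of these data known. Replicate numbers were not used to pair libraries.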

Additional observations from a re-analysis of the deposited data

Results flagged for a closer look

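In 112 groups of summed or Cox7a2l CPM a single library was compared with the spread of its group by Dixon's criterion, which chance meets in about 1 in 20 groups, and 7 met it. Adult-titled Jung tamoxifen replicate 1 was the lowest of its group, with 3696.84 CPM of all subunits against 5855.34 to 6070.4 CPM in the others, and 1348.74 CPM of complex I against 2131 to 2263.16 CPM. Adult Littman oil replicate 3 was the lowest of its group, with 3880.12 CPM of all subunits against 6163.39 to 6488.01 CPM, and 1454.18 CPM of complex I against 2234.95 to 2390.69 CPM. BLZ-titled Jung tamoxifen replicate 1 had 1298.27 CPM of complex IV, against 2194.02 to 2320.44 CPM in the others of its group. Cox7a2l was 493.509 CPM in BLZ-titled Littman tamoxifen replicate 3, against 640.761 to 667.219 CPM, and 460.35 CPM in UC2288 Cre+ replicate 3, against 209.431 to 249.259 CPM. The Littman Cre+ against Cre- effect differed between the postnatal and the vehicle-injected pups for 36 members.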

How the results depend on the processing

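No called result changed direction, while some fold changes near 0 of members and label checks that were not called did. The adult log2 ratios of sums, near 0 and not called, changed sign: tamoxifen against oil in adult-titled Jung libraries gave 0.01, or -0.02 with library totals and -0.07 to 0.16 when 1 library was left out, and in adult Littman libraries -0.03, or -0.18 to 0.04 when 1 library was left out. With library totals in place of TMM, the members called were 12 in BLZ-titled Littman against Jung oil, 6 and 17 in vehicle Cre+ tamoxifen against Cre- and against oil, 0 for UC2288 in Cre+ pups and 17 for the difference between pup experiments, and the log2 ratios of sums in vehicle pups were -0.29 and -0.50. Without a low-count filter they were 9 and 14 in those vehicle comparisons, 0 for UC2288 in Cre+ pups and 1 for the UC2288 by Cre interaction. DESeq2 gave 7 in postnatal Littman, 12 in vehicle Cre+ against Cre-, 2 for UC2288 in Cre+ pups and 3 for the interaction. The compared groups alone gave 7 in postnatal Littman, 1 in Jung oil against Littman Cre- pups and 0 for UC2288 in Cre+ pups. UC2288 in Cre+ pups also gave 0 under DESeq2 size factors, a 20 CPM minimum, limma-voom, a sex covariate and TMM factors without ribosomal protein and mitochondrial genes. The interaction gave 1 under limma-voom and without those genes. The causes were not tested.

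With the replicate block, 2 members were called for UC2288 in Cre+ pups, 1 for the interaction, 10 in postnatal Littman, 17 in BLZ-titled oil, and 17 and 28 in vehicle Cre+ tamoxifen against Cre- and oil. In no comparison did the deviations of every same-numbered pair correlate above 0.1, so the numbers were not used as pairs. All pairs were weakly positive in postnatal Littman pups (0.035 to 0.085) and in BLZ-titled oil libraries (0.001 to 0.034). In adult-titled Jung libraries 3 of 4 pairs exceeded 0.1, with a range of -0.16 to 0.34.

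Leaving out 1 library gave 6 to 19 called members in postnatal Littman, 9 to 29 in BLZ-titled oil, 8 to 20 and 11 to 31 in vehicle Cre+ tamoxifen against Cre- and oil, 0 to 3 for UC2288 in Cre+ pups, 0 to 19 for the interaction, 0 to 1 each for UC2288 in Cre- pups, for Cre+ against Cre- with UC2288 and for the Littman minus Jung pup effect, and 26 to 40 for the difference between pup experiments. The log2 ratio of sums in the interaction was 0.64 to 1.02 when 1 UC2288 or vehicle library was left out. Across the other settings, 162 counts stayed equal or within 1.5 times and 25 did not. A count of 0 that stayed 0 was among the 162, and most comparisons within a table called 0 members. Depth limits the scarce members: Ndufs5 rests on few counts per library.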

Other observations

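Members have short transcripts. In vehicle Cre+ tamoxifen against Cre- pups, other genes with transcripts under 1000 bases had a median log2 fold change of -0.25 and longer ones of 0.13, while members on each side of that length had -0.51 and -0.53. In BLZ-titled Littman against Jung oil libraries the other short and long genes had medians of 0.16 and -0.11, and short and long members 0.78 and 0.43. In postnatal Littman Cre+ against Cre- pups these medians were 0.05 and -0.02 for other genes and 0.32 and 0.29 for members.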
